A study of Caenorhabditis elegans with 6 samples.

Results

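The cholinergic synapse genes of *Caenorhabditis elegans* are described here by 50 probes for 39 genes or loci, out of 22490 gene probes for 18865 names on the array. They were chosen by gene name and not by any measured value, although earlier results of these data were known. The members were ace-1, ace-3 and ace-4 (acetylcholinesterases), all measured acr and gar receptor genes, the cha-1/unc-17 locus, cho-1, snf-6, the levamisole receptor genes unc-29, unc-38, unc-63, lev-1 and lev-8, the assembly genes ric-3 and unc-50, and eat-2, deg-3 and des-2. No probe was matched to acr-25 or unc-74, which were not analysed here, and none to lev-10 alone. A probe where lev-10 and eat-18 overlap was left out of the counts and is described at the end. Each of the 6 two-colour arrays carried RNA of nematodes grown with 0.5 mg/l chlorpyrifos (CPF) dissolved in acetone beside RNA of control nematodes grown with acetone alone. On 3 arrays the CPF sample was labelled with Cy5 and the control with Cy3 (CPF in Cy5 replicates 1 to 3), and on the other 3 the dyes were exchanged (CPF in Cy3 replicates 1 to 3). All nematodes were of the wild type strain N2, were fed OP50 bacteria and were kept at 24 °C. The labels call them L3/L4 animals of 72 h of age. The study's methods give a shorter time at 24 °C, and give 72 h for its nematodes at a lower temperature. The files do not settle which applies. Each sample pooled the animals of 4 dishes, which were grown from synchronised eggs. RNA came from whole animals, in which fewer cells of a type and less RNA per cell cannot be told apart.

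Acetylcholine is the main excitatory transmitter of the nematode body wall. It is made by choline acetyltransferase, loaded into vesicles by a transporter, released onto nicotinic ion channels and muscarinic G protein coupled receptors, and cleaved in the synaptic cleft by acetylcholinesterase, after which choline is taken up again. Organophosphorus compounds such as CPF, once converted to the oxon form, inhibit acetylcholinesterase, so the genes of this synapse are those closest to the primary target of the pesticide. The question addressed here was which of them were measurable in whole animals and whether their transcript levels differed between CPF and control nematodes.

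Usable signal came from 16 of these 39 cholinergic genes. A spot was counted as above background where its median brightness exceeded the local background median by 2 background SDs, and a probe was tested where this held in at least 6 of the 12 channels of the 6 arrays. By this rule 19 of 50 cholinergic probes (38%) were tested, against 49.1% of all gene probes, and they stood for these 16 genes. Another 19 probes were above background in no channel, as were 37.5% of all gene probes. In all 12 channels 3 of them were above background, gar-2, acr-16 and ric-3, each with 1 probe, while 26.5% of all gene probes were.

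**Figure D1:**
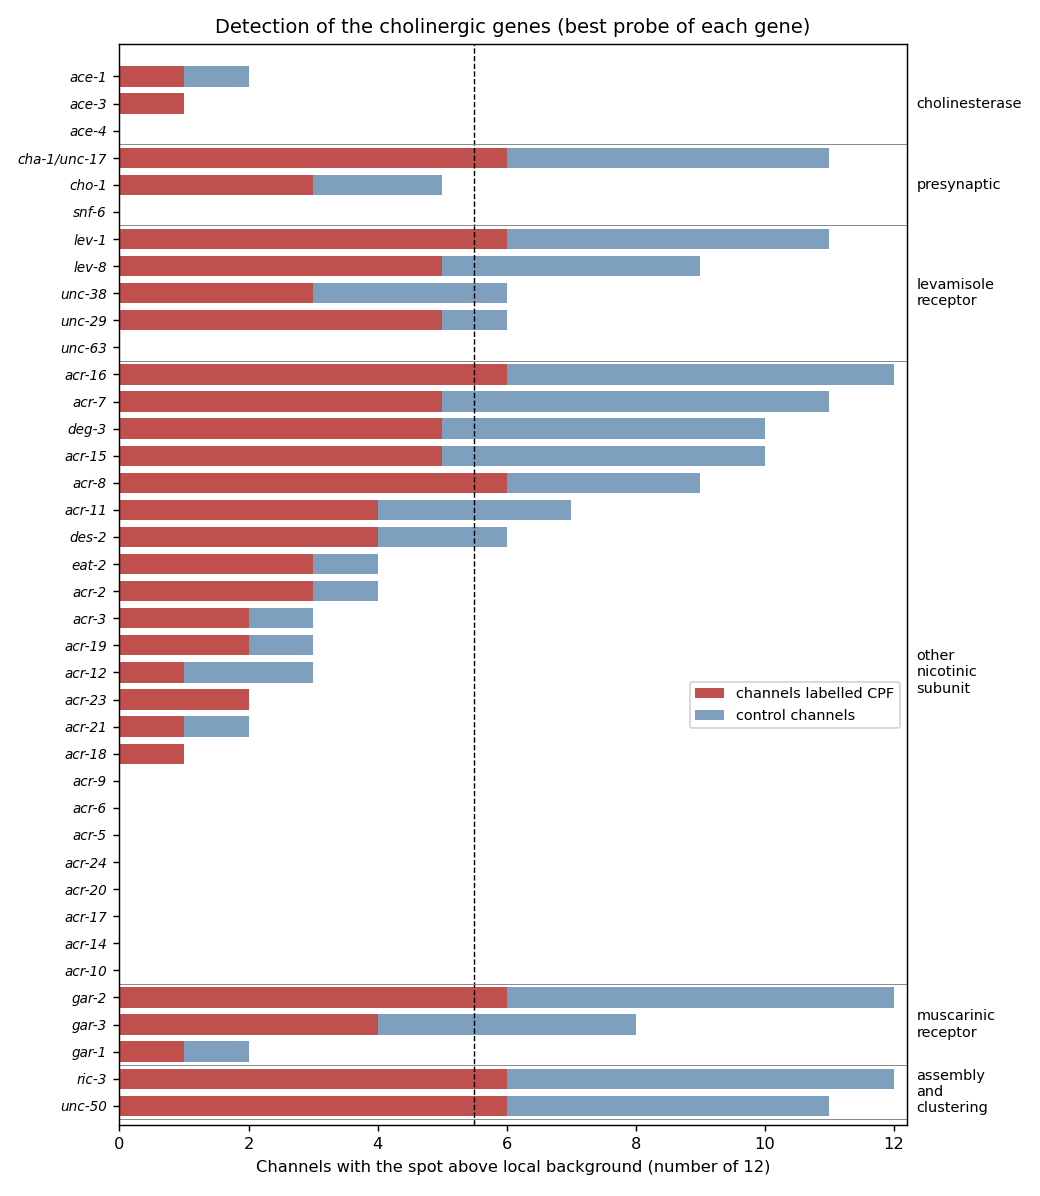
Number of the 12 channels (horizontal axis) in which the best probe of each of the 39 genes or loci was above local background, split into the 6 channels labelled CPF (left part of each bar) and the 6 control channels (right part). Genes right of the dashed line, 16 in all, reached the 6 channels needed for testing, and 11 genes have no bar. The class marked presynaptic stands for synthesis and transport and includes snf-6, whose side of the synapse is not implied.

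Of the acetylcholinesterase genes, ace-1 was above background in 2 channels, ace-3 in 1 and ace-4 in none, so these 3 were not tested. Both assembly genes were tested: ric-3, which encodes a chaperone of nicotinic receptors, and unc-50, which encodes a Golgi protein needed for receptor trafficking. Of the 5 levamisole receptor subunits, which form the levamisole-sensitive channel of body wall muscle, 4 were tested, and unc-63 was above background in no channel. Of the 3 muscarinic receptor genes, gar-2 and gar-3 were tested, and gar-1 was above background in 2 channels.

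The largest class, 23 nicotinic subunit genes outside the levamisole receptor, had 7 tested genes: acr-7, acr-8, acr-11, acr-15, acr-16, deg-3 and des-2. Another 8 (acr-5, acr-6, acr-9, acr-10, acr-14, acr-17, acr-20 and acr-24) were above background in no channel. The remaining 8 were above it in 1 to 4 channels: acr-18 in 1, acr-21 and acr-23 in 2, acr-3, acr-12 and acr-19 in 3, and acr-2 and eat-2 in 4. The product of eat-2 is a subunit of the receptor that paces pharyngeal pumping, and its probe was above background in 3 channels labelled CPF and 1 control channel. The neighbouring genes acr-2 and acr-3, transcribed together in motor neurons, were both among the genes too dim to test.

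Among the genes of acetylcholine synthesis and transport, 2 of the 3 probes of the cha-1/unc-17 locus were tested. There cha-1 (choline acetyltransferase) and unc-17 (vesicular acetylcholine transporter) overlap and share a start. The files name the brighter tested probe ZC416.8a and the other ZC416.8b. They do not say which of these genes a letter stands for. The choline transporter gene cho-1 was above background in 5 channels, 1 short of the rule, and snf-6, which encodes a transporter at neuromuscular junctions, in none. For the 23 genes not tested, a difference between CPF and control nematodes was not measurable on these arrays, which is not the same as no transcript.

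The number of cholinergic probes above background differed between arrays and channels. In CPF and control channels there were 21 and 20 on CPF in Cy5 replicate 1, 24 and 11 on CPF in Cy5 replicate 2, and 12 and 9 on CPF in Cy5 replicate 3. There were 24 and 11 on CPF in Cy3 replicate 1, 13 and 18 on CPF in Cy3 replicate 2, and 21 and 22 on CPF in Cy3 replicate 3. The 2 arrays with 24 against 11 were also those with the widest gap over all gene probes: 48.5% of CPF and 35.96% of control spots were above background on CPF in Cy5 replicate 2, and 56.1% and 38.3% on CPF in Cy3 replicate 1. All comparisons used the normalised ratio within each array.

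None of the 16 genes passed the test of CPF over control. Log2 ratios, on which 1 unit is a factor of 2, were fitted with limma over all 11033 tested gene probes, with terms for CPF and for dye orientation. Of these genes, each taken by its brightest tested probe, 0 had an adjusted p under 0.05 (Benjamini-Hochberg over all tested gene probes), where 3.31% of all 9947 tested genes did. Over single probes 0 of the 19 cholinergic probes passed, against 3.5% of all tested gene probes (1.33% higher and 2.17% lower in CPF nematodes). At an unadjusted p under 0.05 there were 2 of the 16, gar-2 and deg-3, and 25.4% of all tested genes lay under it. The lowest adjusted p of the 16 in limma was that of gar-2 (0.120). Ratios of 12 of the 16 genes were negative (75%, against 49.1% of all genes). The median of the 16 was -0.13, against 0.01 for all genes, and was -0.07 without CPF in Cy3 replicate 1. On that array their median was -0.40, against 0.10 for all tested probes. Signs were taken from the dyes that the labels give for each scanner file. In the deposited table of ratios the columns stand under the opposite dye orientation, and if its column labels were followed all signs given here would be the other way round.

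**Figure D2:**
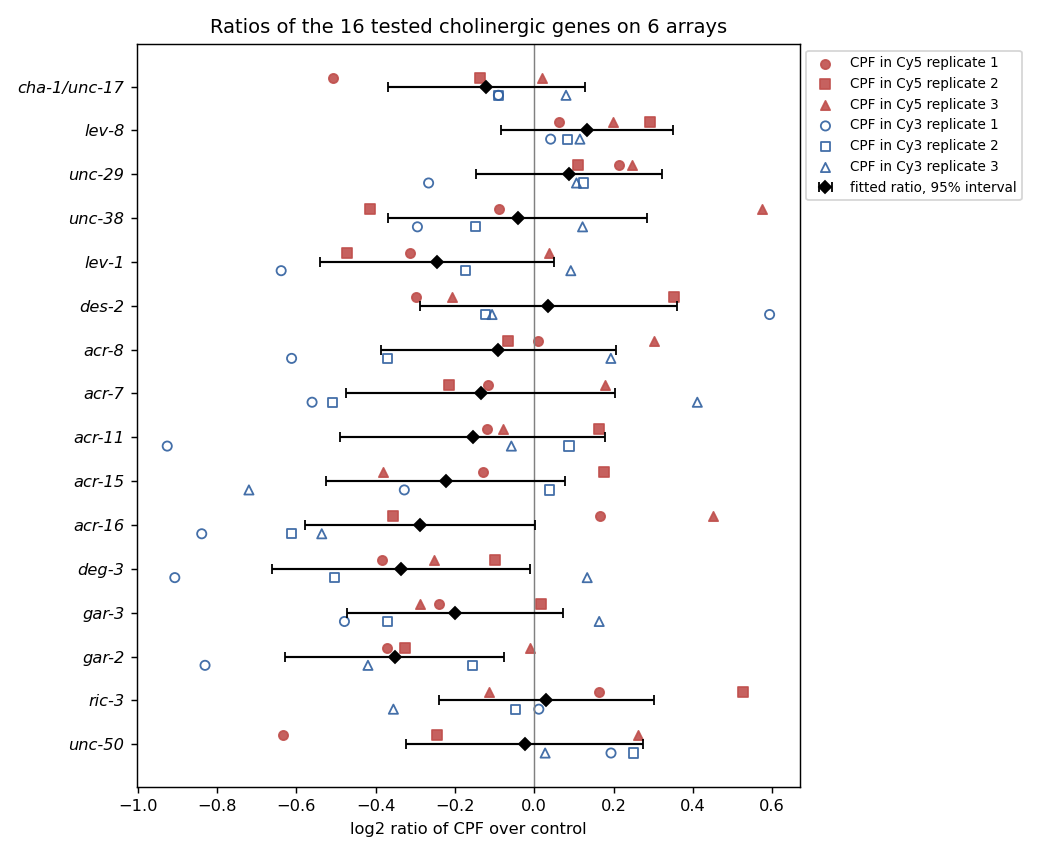
Log2 ratio of CPF over control (horizontal axis) of the 16 tested cholinergic genes on each of the 6 arrays, with the fitted ratio and its 95% interval. Filled symbols are the CPF in Cy5 arrays and open symbols the CPF in Cy3 arrays, and acr-11 at -0.93 on CPF in Cy3 replicate 1 is the farthest point.

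These 3 acetylcholinesterase genes had signals close to background. The product of ace-1 is the acetylcholinesterase of body wall muscle, and its probe was above background only on CPF in Cy3 replicate 3, at net signals (spot median minus local background, in scanner units, before normalisation) of 135 in the CPF channel and 161 in the control channel. The probe of ace-3 was above background in 1 channel, the CPF channel of the same array, at 71 against 51 in the control channel. That of ace-4, which neighbours ace-3, was above background in none. No ratio of these 3 genes was tested.

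Both tested muscarinic receptor genes had negative ratios. The receptor encoded by gar-2 acts in motor neurons, where it lowers acetylcholine release. Its log2 ratio was -0.37, -0.33 and -0.01 on the CPF in Cy5 arrays and -0.83, -0.16 and -0.42 on the CPF in Cy3 arrays, so that all 6 values were below 0. The fitted ratio was -0.35 ± 0.12 (SE, 6 arrays), with an interval of -0.63 to -0.08 and an adjusted p of 0.120 in limma. Only 1 of the 5 probes of gar-2 was above background, so no second probe bears on it. With each array left out in turn the ratio of gar-2 lay between -0.43 and -0.26, and its adjusted p between 0.127 and 0.324. The product of gar-3 modulates pharyngeal and body muscle. Its log2 ratio was -0.24, 0.02 and -0.29 on the CPF in Cy5 arrays and -0.48, -0.37 and 0.16 on the CPF in Cy3 arrays, with a fitted ratio of -0.20 ± 0.12 (adjusted p 0.295 in limma).

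Among the nicotinic subunits outside the levamisole receptor, 6 of the 7 tested genes had negative ratios and none passed the test. The subunit DEG-3 forms a channel with DES-2 that is gated by choline, and their neighbouring genes are transcribed together. The log2 ratio of deg-3 was -0.38, -0.10 and -0.25 on the CPF in Cy5 arrays and -0.91, -0.50 and 0.13 on the CPF in Cy3 arrays, below 0 on 5 of 6. Its fitted ratio was -0.34 ± 0.14, with an interval of -0.66 to -0.01 and an adjusted p of 0.172 in limma. Without CPF in Cy3 replicate 3, the array with the positive value, it was -0.48 with an adjusted p of 0.0474 in limma, in a fit that called 12% of all tested gene probes. The ratio of its partner des-2 was 0.04 ± 0.14, from a probe above background in 6 channels, and was not called under any alternative.

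**Figure D3:**
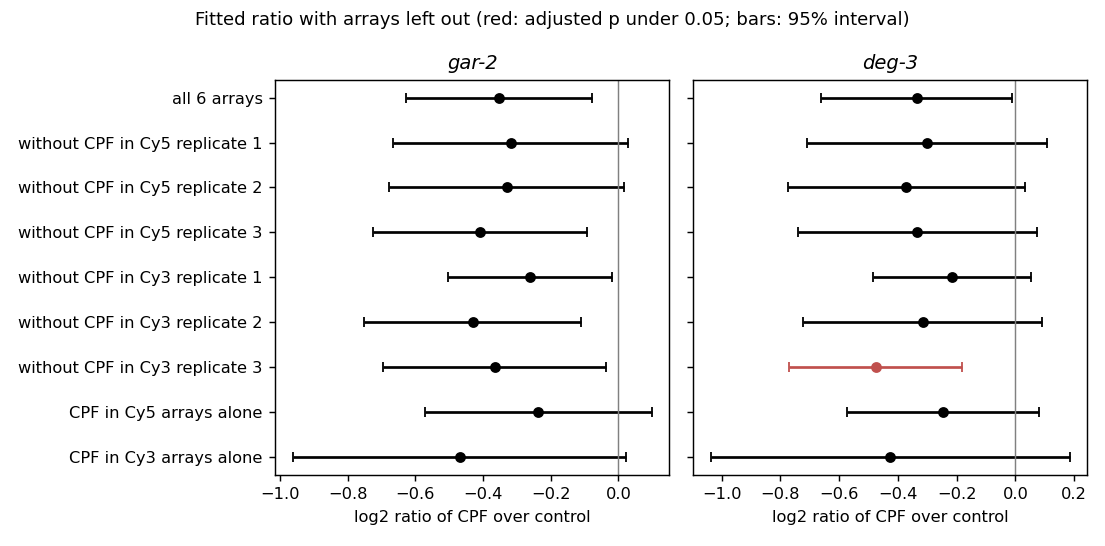
Fitted log2 ratio of CPF over control with its 95% interval (horizontal axes, 1 panel a gene) for gar-2 and deg-3 with all 6 arrays, with each array left out, and within each dye orientation. Red marks an adjusted p under 0.05, which deg-3 reached in 1 setting (CPF in Cy3 replicate 3 left out) and gar-2 in none.

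The subunit of the levamisole-insensitive receptor of body wall muscle, acr-16, split by dye orientation. Its brightest probe had log2 ratios of 0.17, -0.36 and 0.45 on the CPF in Cy5 arrays and -0.84, -0.61 and -0.54 on the CPF in Cy3 arrays, and these ranges did not overlap. The fitted ratio was -0.29 ± 0.13, with an adjusted p of 0.185 in limma. The dye term of this probe was 0.37, with an unadjusted p of 0.0174 (9.89% of all tested probes lay under 0.05) and an adjusted p of 0.491. The other 2 tested probes of acr-16 had fitted ratios of -0.11 and 0.04, so the tested probes of this gene did not all share a sign. These 2 carry the name F25G6.3a and the brightest probe F25G6.3b, so they may read different transcripts. Dye orientation cannot be told apart in this design from any other difference between the CPF in Cy5 and the CPF in Cy3 arrays.

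The neighbouring acr-15 had log2 ratios of -0.13, 0.18 and -0.38 on the CPF in Cy5 arrays and -0.33, 0.04 and -0.72 on the CPF in Cy3 arrays. The fitted ratio was -0.22 ± 0.13 (adjusted p 0.288 in limma), within a spread that crossed 0 in both orientations. The ratios of acr-11, acr-7 and acr-8 were -0.16 ± 0.15, -0.14 ± 0.15 and -0.09 ± 0.13, with intervals that all included 0. The probe of acr-7 was far brighter on both replicate 3 arrays, at net signals of 3658 in the CPF channel and 2795 in the control channel of CPF in Cy5 replicate 3, and of 6267 and 4975 in those of CPF in Cy3 replicate 3. On the other 4 arrays it lay between 57 and 139 in CPF channels and between 68 and 143 in control channels. The log2 ratio of acr-7 was positive on the 2 bright arrays (0.18 and 0.41) and between -0.56 and -0.12 on the others. What set these 2 arrays apart for this probe was not tested.

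Of the 4 tested levamisole receptor genes, 2 had positive and 2 had negative ratios. The alpha subunit gene lev-8 had log2 ratios of 0.06, 0.29 and 0.20 on the CPF in Cy5 arrays and 0.04, 0.08 and 0.11 on the CPF in Cy3 arrays. All 6 were positive and small, and the fitted ratio of 0.13 ± 0.09 had the narrowest interval of the 16 genes, -0.08 to 0.35 (adjusted p 0.375 in limma). Of the 16 genes, lev-8 and gar-2 alone had the same sign on all 6 arrays. The share of all tested genes that did so was not counted, so this number has no baseline.

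The non-alpha subunit gene lev-1 had log2 ratios of -0.31, -0.47 and 0.04 on the CPF in Cy5 arrays and -0.64, -0.17 and 0.09 on the CPF in Cy3 arrays. Its fitted ratio was -0.24 ± 0.13 (adjusted p 0.245 in limma). For unc-29, an essential non-alpha subunit, the values were 0.21, 0.11 and 0.25 on the CPF in Cy5 arrays and -0.27, 0.12 and 0.11 on the CPF in Cy3 arrays. Its fitted ratio of 0.09 ± 0.10 came from a dim probe, above background in 5 channels labelled CPF and 1 control channel. The ratio of the alpha subunit gene unc-38 was -0.04 ± 0.14.

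The genes of synthesis and receptor assembly had ratios near 0. The brightest probe of the cha-1/unc-17 locus (ZC416.8a) had a ratio of -0.12 ± 0.11 (adjusted p 0.474 in limma), and the other tested probe (ZC416.8b) 0.07 ± 0.12. Their names differ in the isoform letter, so they may read different transcripts. No direction can be given for the locus as a whole. The brightest probe also stood apart on both replicate 3 arrays, at net signals of 688 and 1413 in their CPF channels and 629 and 1588 in their control channels, against 86 to 314 and 39 to 155 on the other 4 arrays. Its ratio on them was 0.02 and 0.08, and between -0.51 and -0.09 on the others. The ratios of ric-3 and unc-50 were 0.03 ± 0.12 and -0.02 ± 0.13. The probe of ric-3 was above background in all 12 channels, and its interval was -0.24 to 0.30.

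For 11 of these 16 genes the 95% interval in the fit of all 6 arrays lay within -0.5 to 0.5, a share not counted over all genes. All 16 intervals lay within -1 to 1, as did those of 92.5% of all tested genes. The lowest bound of the 16 was -0.66 and the highest 0.36. These bounds hold for ratios formed after the background correction, which added an offset of 50 to each channel, and for dim probes the offset pulls a ratio towards 0. With plain subtraction the ratio was -0.52 for deg-3, -0.41 for acr-15 and -0.29 for acr-11, still without a call. In the CPF in Cy3 arrays alone the lower bound of deg-3 was -1.04. Array CPF in Cy3 replicate 1 held the value farthest from 0 for 10 of the 16 genes, a share not counted over all genes. The SD of its log2 ratios over all tested probes was 0.900, against 0.424 to 0.468 on the other arrays. The median of the 16 genes was -0.12, -0.08 and 0.03 on the CPF in Cy5 arrays and -0.40, -0.14 and 0.09 on the CPF in Cy3 arrays, so its sign was not the same on all arrays.

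Genes that act with the cholinergic synapse but lie outside it were counted in the same fit. No gene passed, where 3.31% of all tested genes did, among 5 tested GABA synapse genes (median -0.10), 11 further neuromuscular junction genes (-0.06), 5 ligand-gated channels of the lgc and acc families (0.06) and 12 genes of the G protein pathway that sets acetylcholine release (-0.03). A further list of 10 tested genes (median -0.07) held genes of choline and phosphocholine metabolism and also the acyl-CoA synthetase gene acs-2 (-0.36). Of these 10, 1 was lower in CPF nematodes. This was pmt-1, which encodes a phosphoethanolamine methyltransferase of phosphocholine synthesis, at -0.73 ± 0.11 (adjusted p 0.0196 in limma) and below 0 on all 6 arrays.

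Markers of the tissues that hold these synapses were measured beside them. Of 17 tested pan-neuronal genes 0 passed (median -0.07), and the counts here and for the other tissues stand beside the 3.31% of all tested genes that passed. Of 16 body wall muscle genes (median -0.04), 1 was lower, unc-87 at -0.66, and of 6 tested pharynx genes (median 0.05), 1 was higher, tnt-4 at 0.50. Of 12 intestine genes (median -0.25), 1 was lower, cpr-1 at -0.97, and of 10 hypodermis genes (median 0.20) 0 passed. Of 19 tested sperm genes (median 0.62), 4 were higher (ssq-3 at 1.02, msp-50 at 0.82, ssp-11 at 0.68 and msp-63 at 0.64, of which the msp genes have near-identical copies), and of 15 tested oocyte genes (median 0.36), 1 was higher, oma-2 at 0.57. Sperm and oocyte genes appear late in larval development, and the part of a difference in stage in the ratios of the cholinergic genes was not tested. The median of the sperm genes was 0.75, 0.98 and 1.54 on the CPF in Cy5 arrays and 0.44, 0.11 and -0.01 on the CPF in Cy3 arrays, lowest on CPF in Cy3 replicate 3.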

How the data were processed

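Total RNA of whole nematodes was hybridised to 6 two-colour arrays of printed oligonucleotides, each with 1 CPF and 1 control sample. The authors quantified the scans with ScanArray Express per the file headers. The deposited intensity values (spot and local background brightness in each channel) were used as scanned, with no subtraction or normalisation by the authors. The same software gave the deposited percent of pixels at saturation. For the deposited log2 ratios the authors used limma 3.2.3, with loess and Aquantile per their methods. Over 5963 bright probes its columns matched the array of the opposite orientation with the same number (correlations across probes of 0.916, 0.968, 0.995, -0.981, -0.930 and -1.00, against -0.299 to 0.398 with the array of their own label), so the table was tried as an alternative, each column standing for the array it matched. The direction of the ratios rests on the dyes in the labels of the scanner files.

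Intensity was corrected with normexp (offset 50), followed by loess on each array and Aquantile across arrays, in R 4.3.3 with limma 3.58.1. Control and blank spots (742) were left out. Probes were named from the sequence name in the files (21382) or the platform annotation (31), and 1077 kept their name. Symbols came from the RefSeq annotation, and the study's tables pair the sequence name of the cha-1/unc-17 probes with cha-1. Tested probes (11033) were those whose median exceeded the local background by 2 of its SDs in 6 or more of the 12 channels. This signal over background takes the place of depth, and the number of arrays limits the precision. The ratio of CPF over control was fitted in limma (lmFit and eBayes, 2-sided) with a dye term. This term also takes up any other difference between the arrays of each orientation. Benjamini-Hochberg adjustment was over all tested gene probes at a threshold of 0.05. Intervals are 95% intervals of the fitted ratio. The procedure was also run on simulated data in which the noise of each array was independent. The log2 ratios of the real arrays correlated across probes, at up to 0.681 (CPF in Cy5 replicates 1 and 2). Nothing about the fit to the real arrays is concluded from that run.

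The study describes 6 biological samples per treatment as replicates, and p-values measure the spread between these arrays. Replicate numbers are shared by both orientations, but deviations of same-numbered arrays correlated across probes at 0.103, -0.0788 and 0.271, so no pairing was used in the fit and a block on the number was an alternative. Other alternatives covered background correction, normalisation, the filter, the dye term, the study's linear model (taken to fit each channel separately, which the methods leave unstated), the deposited table, robust regression, array weights, the probe of a gene, each array left out and each orientation alone (24 in all). Named genes were the acetylcholinesterase genes and every tested member, with values on every array for the 6 genes with the smallest p, those with an unadjusted p under 0.05 and the 2 with the narrowest interval. From other lists up to 4 called genes were named. One gene of the group is not reported here, and the counts of members leave it out. The members, lists and tests were chosen with earlier results of these data known. Plots used Python 3.11.15 and matplotlib 3.10.9.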

Additional observations from a re-analysis of the deposited data

Results flagged for a closer look

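Of the 19 tested cholinergic probes, 3 had 1 array far from the others, with a gap to the nearest value, as a share of the range over the 6 arrays, above Dixon's 95% critical value. Chance would flag about 1 in 20 probes if all 6 arrays had the same spread. The spread was wider on CPF in Cy3 replicate 1, so that rate is no baseline for these 3 probes. For 2 of these the array was CPF in Cy3 replicate 1, which had the widest ratios over all tested probes. The ratio of unc-29 was -0.27 there, while the others lay between 0.11 and 0.25. That of acr-11 was -0.93, while the others lay between -0.12 and 0.16. For the brightest probe of cha-1/unc-17 the array was CPF in Cy5 replicate 1, at -0.51, and the others lay between -0.14 and 0.08.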

How the results depend on the processing

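Over 24 alternatives the median of the cholinergic genes stayed negative (-0.29 to -0.01), and 21 alternatives called none of them. The value of -0.29 is the median of only 3 genes, with all 12 channels asked for. The deposited table, among the 21 without a call, gave no fit of gar-2 and deg-3. Several alternatives could not move a fitted ratio. By design it stayed as in the main fit without between-array normalisation, without the dye term, with the replicate block and in the study's linear model. The filter settings changed which genes were tested and not the ratio of a gene. With robust regression 1 of 16 was called (deg-3 at -0.37), where 14.7% of all tested gene probes were, and with array weights, whose estimation did not converge, 8 of 16 (1 higher, 7 lower), where 45.4% were. Without 1 array each, 0 to 1 were called (deg-3 without CPF in Cy3 replicate 3). No called ratio changed sign, while 29 of 369 ratios of single genes did so without a call, in acr-8, acr-11, acr-16, des-2, ric-3, unc-29, unc-38 and unc-50. The 369 include the ratios that could not move by design. Testing all probes brought in 39 cholinergic genes and asking for all 12 channels left 3.

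Over all gene probes, 386 were called (147 higher, 239 lower). The count was 243 without background correction (63 higher, 180 lower), 233 with plain subtraction (57 higher, 176 lower), 54 with median centring (4 higher, 50 lower), 1268 with scale normalisation (748 higher, 520 lower), 256 with all 12 channels, 205 without the dye term, 8 in the study's linear model (read as single channels; 89 at the study's own threshold, an unadjusted p under 0.01, with 0 cholinergic genes), 692 in the deposited table (353 higher, 339 lower), 1626 with robust regression and 5005 with array weights. It was 629 in the CPF in Cy5 arrays alone, 20 in the CPF in Cy3 arrays alone and 58 to 1323 with 1 array left out (lowest without CPF in Cy5 replicate 1, highest without CPF in Cy3 replicate 3). With the replicate number as a block 470 were called, and 0 cholinergic genes. Causes were not tested. From the deposited values 14 cholinergic genes could be fitted. The genes lost were gar-2 and deg-3, those with the smallest p in the main fit, which lacked values on more than 1 CPF in Cy3 array.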

Other observations

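The probe of the sequence name Y105E8A.7, which the platform annotation calls eat-18, lies where the annotated genes eat-18 and lev-10 overlap, so it was not counted among the cholinergic genes. Its log2 ratio was -0.25 ± 0.14 (SE, 6 arrays; adjusted p 0.270 in limma), and it was above background in all 6 channels labelled CPF and all 6 control channels.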
